A study of Homo sapiens with 4 samples.

Results

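Genes of sterol efflux and of the liver X receptors were followed in the 786-O cell line with and without VHL. The 10 genes were chosen by name: the receptors NR1H2 and NR1H3, the targets ABCA1, ABCG1, MYLIP and APOE, and SCARB1, NPC1, NPC2 and SOAT1, which move or store cholesterol. Of these, 9 were analysed, out of 12912 genes in the count table, and each was the only entry with its symbol. ABCG1 was not analysed here. 786-O is a line from a human clear cell renal cell carcinoma that has no functional VHL, the subunit that brings hydroxylated HIFα to a ubiquitin ligase. 786-O-Ctrl, labelled as wild type (VHL-null), was compared with 786-O-VHL, labelled as VHL restoration, in which a retroviral vector drives HA-tagged VHL. Both sublines are named 786-OTR in the labels, since they carry a triple reporter of GFP, luciferase and thymidine kinase, and both grew in RPMI1640 with serum. There were 2 RNA-seq libraries per group, and all libraries of a group came from the same subline, so the comparison is between these sublines and p-values measure only the spread between libraries. The sources used here do not say whether 786-O-Ctrl carries an empty vector.

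Cells cannot break down the sterol ring, and they dispose of surplus cholesterol by esterifying it or by passing it to lipoproteins outside. Oxysterols made from surplus cholesterol bind the liver X receptors LXRα (NR1H3) and LXRβ (NR1H2), which pair with a retinoid X receptor and turn on efflux genes. ABCA1 passes cholesterol to lipid-poor apolipoproteins, and MYLIP, also called IDOL, is a ubiquitin ligase that marks lipoprotein receptors for degradation. Clear cell renal carcinoma is named for the lipid and glycogen that fill its cells, with cholesteryl esters among the lipid.

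The promoter of ABCA1 holds a well known LXR response element, and it is shown here because ABCA1 is the usual readout of these receptors. LXR dimers bind DR4 elements, a repeated motif in the same orientation with a spacer. Windows from 250 bases before to 50 bases after annotated starts were taken from RefSeq (GRCh38.p14), and 8 of the 10 genes had at least 1 window. SCARB1 and ABCG1 had no window, so neither was searched for any motif. Both strands were searched for AGGTCA, any 4 bases and again AGGTCA, with up to 2 mismatches outside the spacer. The 8 genes had 14 windows, of which 1, that of ABCA1, held a match, and 2.34% of all 35116 windows held one. The match lies 69 to 54 bases before the start, on the strand opposite to the gene. It is given with the repeated motif in capitals and the spacer in lower case.
DR4 in ABCA1: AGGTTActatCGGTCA
It differs from the searched letters by C5T and A11C, counted from the 5′ end of the element, with the searched base first. The whole window, chr9:104928106-104928405 on the minus strand of GRCh38.p14, is given in the direction of transcription with the match in capitals.
ABCA1: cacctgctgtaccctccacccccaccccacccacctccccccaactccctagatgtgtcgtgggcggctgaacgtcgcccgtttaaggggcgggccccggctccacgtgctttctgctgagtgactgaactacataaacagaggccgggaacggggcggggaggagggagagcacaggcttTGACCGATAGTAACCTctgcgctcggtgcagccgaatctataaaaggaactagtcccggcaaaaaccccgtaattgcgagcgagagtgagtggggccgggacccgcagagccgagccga
ACGTG, the core of a hypoxia response element, was in 2 of the 14 windows (ABCA1 and NR1H2) and in 21.4% of all windows. GCGTG, the other form of that core, was in 3 of the 14 (NR1H2, NR1H3 and SOAT1) and in 36.5% of all. TCACNCCAC, a form of the sterol regulatory element, was in none of the windows of these 8 genes and in 1.13% of all. A match or its absence describes these letters only.

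Counts summed to between 2807779 and 22141263 per library, and 786-O-VHL replicate 1 was the shallowest. Both 786-O-Ctrl columns bear 1 replicate number, so those libraries are named by depth, deeper and shallower. Values are counts scaled to 1000000 per library (CPM) after edgeR's TMM adjustment. A count of 0 allows up to 3 counts, or 1.02 CPM in 786-O-VHL replicate 1 and at most 0.199 CPM in the other libraries, and this limit and the counting intervals given for APOE cover counting error only. VHL mRNA, which the vector and the endogenous gene share, was at 42.9 and 43.9 CPM in the deeper and shallower 786-O-Ctrl libraries and at 178 and 163 CPM in 786-O-VHL replicates 1 and 2. All 8 markers listed for a renal epithelial line were detected, among them PAX8 at 137 to 277 CPM. Of 8 leukocyte and macrophage markers, 2 were analysed, CSF1R and CD14. Their summed level was 13.7 to 14.2 CPM in 786-O-Ctrl and 2.67 to 4.41 CPM in 786-O-VHL, most of it CSF1R, and CD14 had between 1 and 15 counts. The sum was 1.19 to 1.33 against 0.678 to 1.01 CPM for 3 endothelial markers of 4, of which KDR had 0 counts in 786-O-VHL replicate 1, and 14.9 to 15.1 against 21.3 to 23.1 CPM for 4 fibroblast and mural markers of 5. Macrophages and fibroblasts also use sterol efflux genes, and the part of these markers in the results was not tested. In such bulk libraries, fewer cells with a transcript and less transcript per cell cannot be told apart.

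SCARB1 fell 2.99-fold after VHL restoration, NPC1 rose by 25.3%, and APOE rose from a very low level in a call that 8 of 10 alternatives lost. The receptors, ABCA1, MYLIP, NPC2 and SOAT1 did not pass the test. All 9 genes were among the 12335 tested by edgeR (quasi-likelihood F test, with Benjamini-Hochberg adjustment over all of them, FDR). At FDR < 0.05, 2 of the 9 were higher and 1 was lower in 786-O-VHL, or 33.3% called, while 64.5% of all genes tested were called (32.6% higher and 31.9% lower). Over all genes these were 4017 higher and 3939 lower, and 5077 higher and 3097 lower with scaling by library totals. At FDR < 0.01, SCARB1 and NPC1 were called, against 55.0% of all genes. Past 2-fold at FDR < 0.05 were SCARB1 and APOE, against 17.5% of all genes. The median log2 fold change (786-O-VHL over 786-O-Ctrl) was -0.05 over the members and 0.02 over all genes, and the median size without sign was 0.33 against 0.43. The libraries of the groups did not overlap for 8 members, 4 lower and 4 higher in 786-O-VHL, which also held for 80.0% of all genes tested (39.2% lower and 40.8% higher). With 2 libraries against 2, an exact permutation test cannot give a two-sided p below 0.333, so each call draws on the dispersion estimated by edgeR over all genes.

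**Figure D1:**
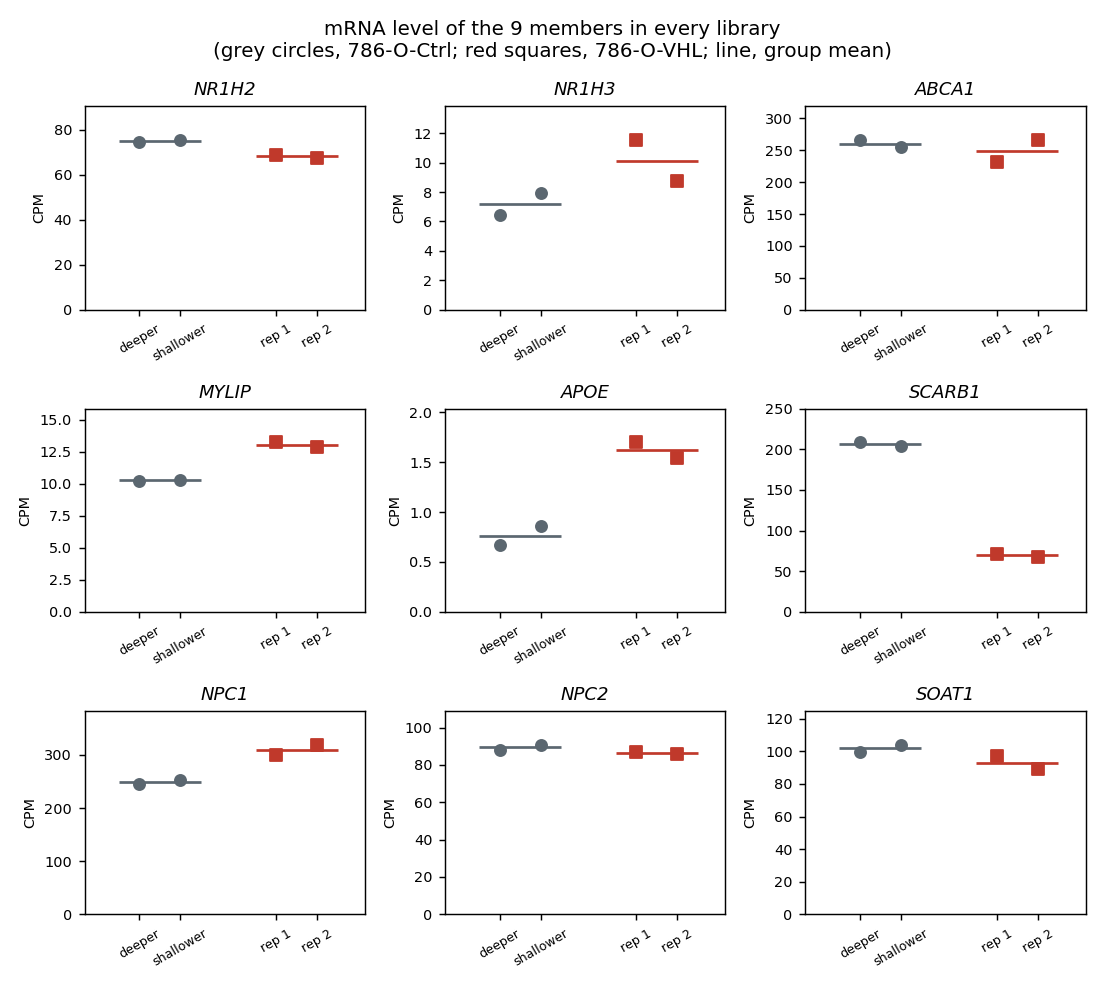
CPM of each of the 9 genes in every library, with axes from 0; grey circles are the 786-O-Ctrl libraries, red squares are 786-O-VHL replicates 1 and 2, and lines are group means of 2 libraries. SCARB1 drops from 204 to 208 CPM to 68.1 to 71.6 CPM, ABCA1 is the 1 gene whose groups overlap, and the APOE axis ends near 2 CPM.

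SCARB1, the scavenger receptor class B type 1 that exchanges cholesterol with HDL in both directions and takes up cholesteryl esters from it, changed most. It was at 208 CPM (4388 counts) and 204 CPM (3063 counts) in the deeper and shallower 786-O-Ctrl libraries. In 786-O-VHL it was at 71.6 CPM (211 counts) in replicate 1 and 68.1 CPM (1146 counts) in replicate 2. The groups were far apart and each was tight, at 206 ± 3.4 and 69.8 ± 2.49 CPM (SD, n = 2 each). The log2 fold change was -1.58 with a standard error of 0.07 (edgeR FDR = 2.63e-17). In size this exceeded 92.3% of all genes tested. Under the 12 alternatives of the processing the log2 fold change stayed between -1.60 and -1.44, and every one called it. SCARB1 (ENSG00000073060.16) spans bases 125261402 to 125367214 of chromosome 12 in GRCh37, on the minus strand, and 7.52% of its exon bases are shared with a gene on the opposite strand.

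NPC1 and NPC2 work in turn in the late endosome and lysosome, where soluble NPC2 takes up cholesterol freed from lipoproteins and hands it to NPC1 in the membrane. NPC1 was at 245 and 252 CPM in the deeper and shallower 786-O-Ctrl libraries and at 299.9 and 319 CPM in 786-O-VHL replicates 1 and 2. Both 786-O-VHL libraries were above both others. The log2 fold change was 0.33 with a standard error of 0.0627 (edgeR FDR = 4.99e-05), and it lay between 0.27 and 0.46 under the 12 alternatives, all of which called it. NPC2 was at 87.9 and 90.8 CPM in 786-O-Ctrl and at 86.8 and 85.8 CPM in 786-O-VHL. Its groups lay within a few percent of each other, with a log2 fold change of -0.05 (edgeR FDR = 0.522) and a 95% interval from -0.19 to 0.09, and library totals in place of TMM gave 0.08. Per length of transcript, NPC2 was 2.08 and 2.09 times NPC1 in the 786-O-Ctrl libraries and 1.68 and 1.56 times in 786-O-VHL replicates 1 and 2. NPC1 (ENSG00000141458.13) lies on chromosome 18 of GRCh37 from 21086148 to 21166470 with 6.38% of its exon bases shared with RMC1 on the opposite strand. NPC2 (ENSG00000119655.10) lies on chromosome 14 from 74942895 to 74960880, where ISCA2 shares 3.99% on the opposite strand.

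ABCA1, the transporter that starts HDL formation, showed no detectable difference. It was at 266 and 256 CPM in the deeper and shallower 786-O-Ctrl libraries and at 231 and 266 CPM in 786-O-VHL replicates 1 and 2. The 786-O-VHL libraries lay on either side of the shallower control, and replicate 2 was level with the deeper one. The log2 fold change was -0.05 with a standard error of 0.067 (edgeR FDR = 0.56) and a 95% interval from -0.18 to 0.09, so a rise or fall past 2-fold is outside it. Its sign depended on the scaling and on 1 library: the log2 fold change was 0.09 with library totals in place of TMM (edgeR FDR = 0.247), 0.03 without 786-O-VHL replicate 1 (edgeR FDR = 0.637) and -0.18 without replicate 2 (edgeR FDR = 0.0282). ABCA1 (ENSG00000165029.16) covers bases 107543287 to 107690436 of chromosome 9 in GRCh37, on the minus strand, with 52 exon blocks over 147150 bases, and shares no exon base with another annotated gene. Per length of transcript, ABCA1 stood at 0.417 and 0.411 times SCARB1 in 786-O-Ctrl and at 1.06 and 1.28 times SCARB1 in 786-O-VHL replicates 1 and 2. Which of them stood higher in 786-O-Ctrl depends on the length used. Over the union of all annotated exons, ABCA1 was above SCARB1 in both groups. The means were 23.0 against 13.8 CPM per kb in 786-O-Ctrl and 21.9 against 4.69 in 786-O-VHL.

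MYLIP was at 10.3 CPM in both 786-O-Ctrl libraries (216 and 155 counts) and at 13.2 and 12.9 CPM in 786-O-VHL replicates 1 and 2 (39 and 217 counts). The groups did not overlap. The log2 fold change was 0.33 (standard error 0.159), with an edgeR FDR of 0.0663, which misses the threshold. Library totals in place of TMM gave 0.47 (edgeR FDR = 0.0116), a scaling that shifts the median of all genes by 0.13 on the log2 scale. MYLIP (ENSG00000007944.15) lies on chromosome 6 of GRCh37 from 16129317 to 16148479.

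APOE, the apolipoprotein that carries cholesterol between cells and an LXR target in macrophages, was barely transcribed. The deeper and shallower 786-O-Ctrl libraries held 14 and 13 counts, or 0.665 CPM (95% Poisson interval 0.363 to 1.12) and 0.864 CPM (0.46 to 1.48). 786-O-VHL held 5 counts in replicate 1, or 1.70 CPM (0.551 to 3.96), and 26 counts in replicate 2, or 1.54 CPM (1.01 to 2.26). Both 786-O-VHL values were higher, but the intervals of single libraries overlap between groups. The log2 fold change was 1.06 with a standard error of 0.459 (edgeR FDR = 0.0452). The call was lost without any 1 of the 4 libraries, with edgeR FDR values from 0.078 to 0.303, and with DESeq2 (adjusted p = 0.284). Thinning to equal depth and requiring 10 counts in every library left APOE untested. APOE (ENSG00000130203.10) lies on chromosome 19 of GRCh37 from 45409048 to 45412650.

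Neither receptor passed FDR < 0.05 in the reported fit, and the change of NR1H3 was estimated less precisely than that of NR1H2. NR1H2 was at 74.7 and 75.4 CPM in the deeper and shallower 786-O-Ctrl libraries and at 68.9 and 67.6 CPM in 786-O-VHL replicates 1 and 2. Its 786-O-VHL libraries were both lower, by a log2 fold change of -0.14 (standard error 0.0719) that missed the threshold (edgeR FDR = 0.0833) and turned to 0.03 after thinning to equal depth. NR1H3 was at 6.46 and 7.91 CPM in 786-O-Ctrl (136 and 119 counts) and at 11.5 and 8.73 CPM in 786-O-VHL replicates 1 and 2 (34 and 147 counts). Its 786-O-VHL libraries were both higher but uneven, with a log2 fold change of 0.39 and a standard error of 0.197 (edgeR FDR = 0.0816). Library totals in place of TMM gave NR1H3 a log2 fold change of 0.53 (edgeR FDR = 0.021), and with a replicate block that pairs the deeper 786-O-Ctrl library with 786-O-VHL replicate 2 it was 0.47 (edgeR FDR = 0.0479). LXRβ was the main form in every library: per length of transcript NR1H2 was 8.86 and 7.30 times NR1H3 in the deeper and shallower 786-O-Ctrl libraries and 4.58 and 5.93 times in 786-O-VHL replicates 1 and 2. NR1H2 (ENSG00000131408.14) lies on chromosome 19 of GRCh37 from 50832910 to 50886645, and 22.1% of its exon bases are shared with NAPSA on the opposite strand, whose reads cannot be told apart without strand. NR1H3 (ENSG00000025434.19) lies on chromosome 11 from 47269851 to 47290584 and shares 4.17% with ACP2 on the opposite strand.

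SOAT1, the enzyme of the endoplasmic reticulum that esterifies cholesterol for storage in droplets, was at 99.6 and 104 CPM in 786-O-Ctrl and at 97.0 and 89.0 CPM in 786-O-VHL replicates 1 and 2. Both 786-O-VHL libraries were lower, replicate 1 only just. The log2 fold change was -0.16 (standard error 0.0699), next to the threshold (edgeR FDR = 0.0512). It passed without 786-O-VHL replicate 1 (edgeR FDR = 0.00839), with RLE size factors (0.0337) and with no filter on low counts (0.0399), at log2 fold changes between -0.19 and -0.17. SOAT1 (ENSG00000057252.13) lies on chromosome 1 of GRCh37 from 179262849 to 179327815 and shares no exon base with another annotated gene.

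**Figure D2:**
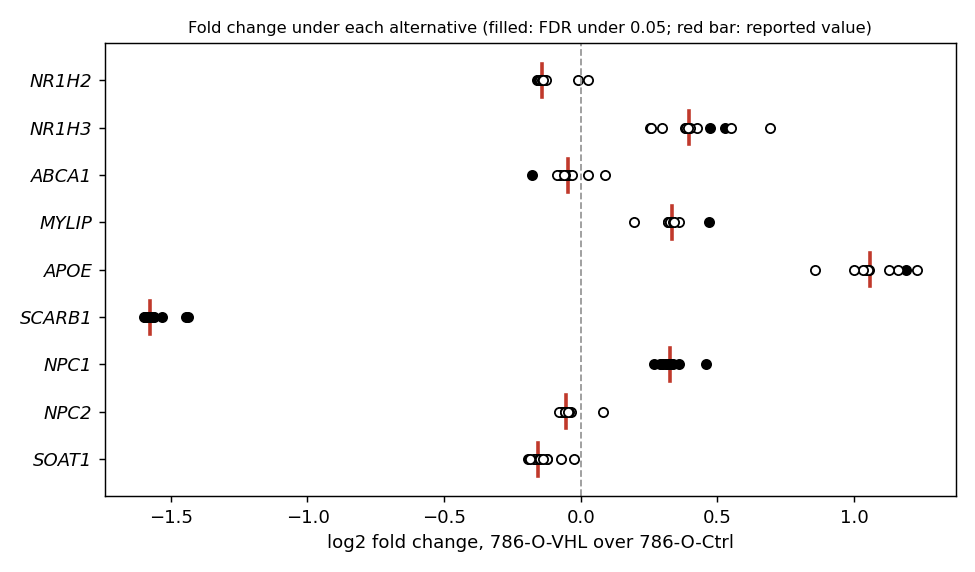
Log2 fold change of each member (786-O-VHL over 786-O-Ctrl) under each alternative of the processing, 1 point per fit, filled where the adjusted p was under 0.05, with the reported value as a red bar. SCARB1 stays between -1.60 and -1.44 and NPC1 between 0.27 and 0.46, while the points of ABCA1, NR1H2 and NPC2 fall on both sides of 0.

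**Figure D3:**
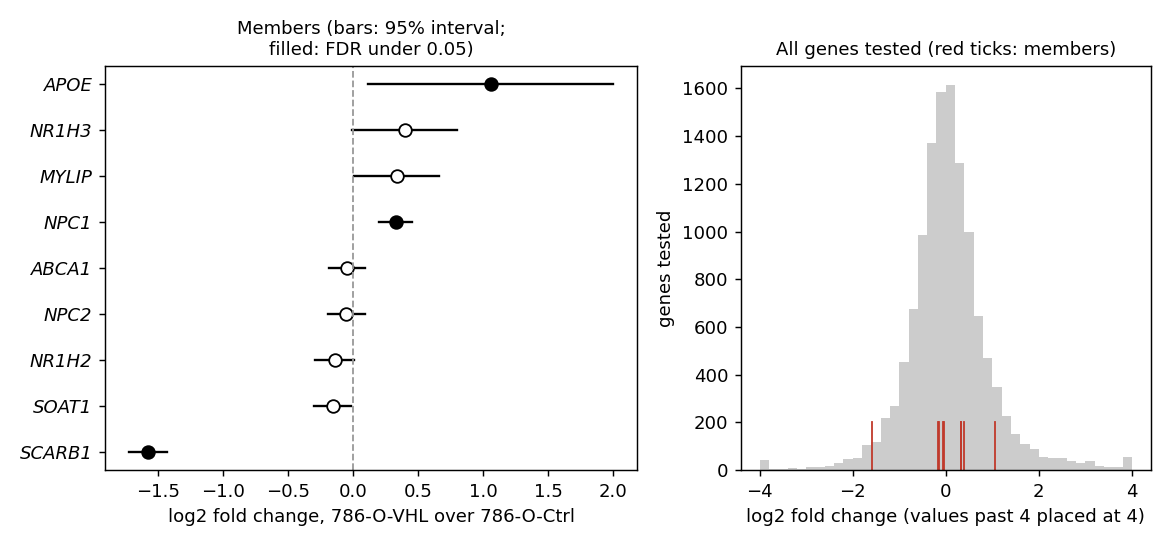
Left, log2 fold change of each member (786-O-VHL over 786-O-Ctrl, 2 libraries each) with its unadjusted 95% interval, filled where the edgeR FDR was under 0.05. Right, histogram of the log2 fold changes of the 12335 genes tested, with members as red ticks; SCARB1 at -1.58 lies in the left flank and most members lie near the centre.

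The order of the members by level, in CPM per kb of the MANE Select transcript, ran in 786-O-Ctrl from NPC2 (109 ± 2.53) through SCARB1 (60.5 ± 0.999), NPC1 (52.2 ± 1.07), NR1H2 (31.0 ± 0.209), ABCA1 (25.0 ± 0.65) and SOAT1 (14.9 ± 0.46) to NR1H3 (3.88 ± 0.554), MYLIP (3.35 ± 0.0101) and APOE (0.656 ± 0.121; SD, n = 2 throughout). NR1H3 and MYLIP, next to each other, differed by less than the SD of NR1H3. In 786-O-VHL, SCARB1 moved from the second to the fifth place, behind ABCA1 (23.9 ± 2.35) and ahead of SOAT1 (13.6 ± 0.833), at 20.5 ± 0.732. The place of SCARB1 depends on the length used. Over the union of all its annotated exons, 14887 bases against 3405 in the transcript, it stood sixth in both groups, and in 786-O-Ctrl its range of 13.7 to 14.0 CPM per kb overlapped that of NR1H2 before rounding. The exon length does not enter any comparison between libraries.

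**Figure D4:**
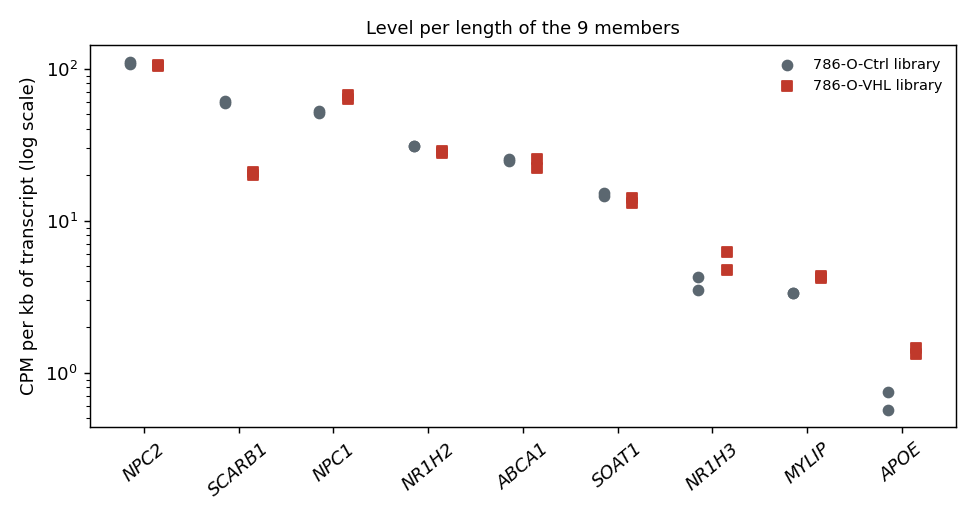
CPM per kb of MANE Select transcript on a log axis for the 9 members, ordered by the 786-O-Ctrl mean; grey circles are 786-O-Ctrl and red squares 786-O-VHL libraries. NPC2 stays above 100 in all libraries, SCARB1 leaves the second place in 786-O-VHL, and APOE lies lowest.

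Genes around the members were read from 5 lists, of which 61 of 84 genes were tested, with 20 higher and 23 lower at FDR < 0.05 (70.5% called, against 64.5% of all genes). The count higher was 10 with DESeq2, 11 after thinning to equal depth, 11 without the deeper 786-O-Ctrl library or without 786-O-VHL replicate 2, and 12 without the shallower 786-O-Ctrl library. Retinoid X receptors and coregulators of LXR had 5 higher and 3 lower of 13 tested, with a median log2 fold change of 0.11. RXRA, which encodes 1 of the retinoid X receptors, had a log2 fold change of -0.07 (edgeR FDR = 0.389). The coactivators NCOA3, NCOA2 and MED1 rose, with log2 fold changes of 0.60, 0.45 and 0.25. The call of MED1 was lost with DESeq2 (adjusted p = 0.0908), without the deeper 786-O-Ctrl library (edgeR FDR = 0.109) and without 786-O-VHL replicate 2 (edgeR FDR = 0.293). Of the corepressor complexes, GPS2 and HDAC3 fell by 1.37 and 0.29 on the log2 scale. The value of GPS2 rested on 786-O-VHL replicate 2, at 1.66 CPM against 4.07 in replicate 1, without which it was -0.42 (edgeR FDR = 0.447), and thinning to equal depth gave -0.72 (edgeR FDR = 0.22). HDAC3 was not called with library totals alone or without the shallower 786-O-Ctrl library (edgeR FDR = 0.0721 and 0.0695).

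Other LXR target genes had 1 higher and 6 lower of 10 tested, against 32.6% higher and 31.9% lower of all genes, with a median of -0.52. Those that fell most were FASN, the fatty acid synthase, from 673 and 604 to 154 and 149 CPM (log2 fold change -2.08, edgeR FDR = 7.4e-20), SMPDL3A, a phosphodiesterase, at -1.62, and SCD, the stearoyl-CoA desaturase, at -1.55. SREBF1, which encodes SREBP1 and passes LXR signals to lipid synthesis genes, fell by 0.59 (edgeR FDR = 6.01e-09). FASN and SCD are also direct targets of SREBP. MERTK, a receptor for apoptotic cells, rose by 1.06 (edgeR FDR = 0.000126), with 14.9 and 9.26 CPM in 786-O-VHL replicates 1 and 2.

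Enzymes of oxysterols and cholesteryl esters had 1 higher and 3 lower of 6 tested, with a median of -0.34, and 64.5% of all genes were called. Enzymes that free cholesterol from its esters were among those that fell: LIPA, the lysosomal acid lipase, had a log2 fold change of -1.03 (edgeR FDR = 9.22e-13), and NCEH1, a neutral cholesteryl ester hydrolase, -0.90 (edgeR FDR = 1.52e-12). LIPA was at 119 and 128 CPM in 786-O-Ctrl and at 57.7 and 61.6 CPM in 786-O-VHL, and NCEH1 went from 281 and 291 to 147 and 157 CPM. SOAT2, the second esterifying enzyme, had 33 and 19 counts in 786-O-Ctrl and 1 and 5 counts in 786-O-VHL, which gave a fitted log2 fold change of -2.21 (edgeR FDR = 0.00205) that was not called with DESeq2 (adjusted p = 0.0689) or without 786-O-VHL replicate 2 (edgeR FDR = 0.188). LIPE, the hormone-sensitive lipase, had a log2 fold change of 0.57 (edgeR FDR = 0.0497) with overlapping groups, and 8 of 12 alternatives lost the call, among them DESeq2 (adjusted p = 0.406), RLE size factors (edgeR FDR = 0.0554) and both replicate blocks (edgeR FDR = 0.13 and 0.134). Without 786-O-VHL replicate 2 its log2 fold change was 0.0043.

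Lipoprotein receptors and other lipid transporters had 6 higher and 4 lower of 11 tested, with a median of 0.31, where all genes had 32.6% higher and 31.9% lower. Among the receptors that MYLIP targets, LRP8 fell from 77.1 and 71.8 to 8.82 and 7.54 CPM, a log2 fold change of -3.26 (edgeR FDR = 1.81e-19). VLDLR, also a target, rose by 0.40 (edgeR FDR = 0.000166). PDZK1, the scaffold that holds SCARB1 at the membrane in liver, went the other way from SCARB1, from 37.9 and 38.5 to 101 and 88.5 CPM (log2 fold change 1.27, edgeR FDR = 3.96e-14). Of the ABC transporters, ABCA7 rose by 1.21 (edgeR FDR = 2.77e-11) and ABCA2 fell by 0.61 (edgeR FDR = 8.67e-09). ABCG4 had 5 and 3 counts in 786-O-Ctrl and 3 and 22 counts in 786-O-VHL, so its fitted log2 fold change of 2.45 rests on few reads (edgeR FDR = 0.00093, DESeq2 adjusted p = 0.0537).

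**Figure D5:**
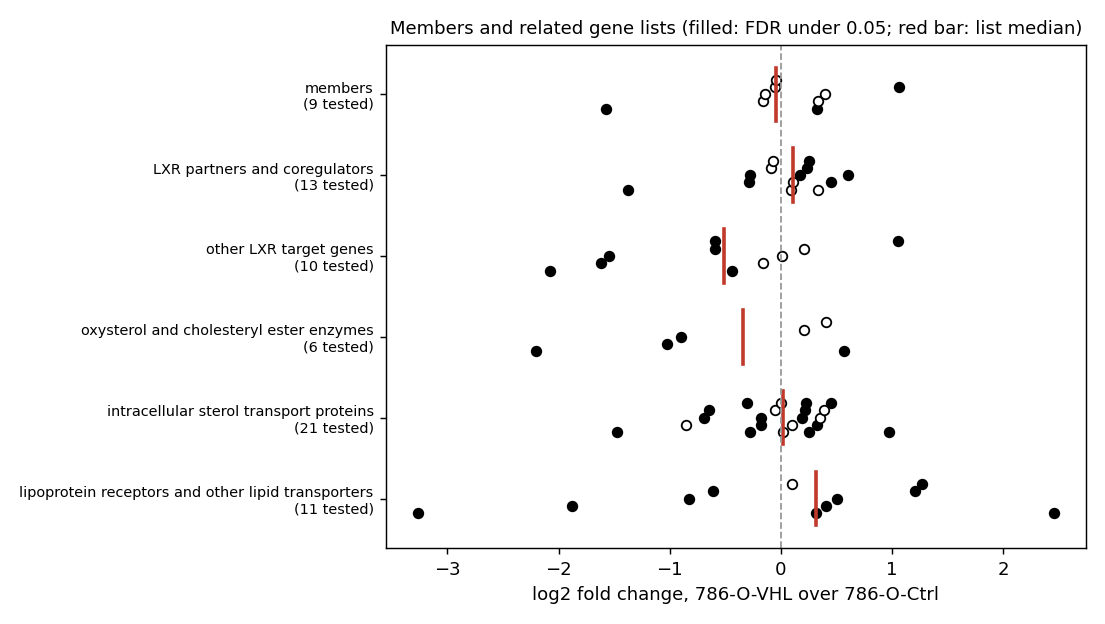
Log2 fold change (786-O-VHL over 786-O-Ctrl) of every tested gene of the members and of the 5 lists, 1 point per gene, filled where the edgeR FDR was under 0.05, with list medians as red bars. The members cluster near 0 apart from SCARB1 and APOE, and the receptor list spreads from -3.26 for LRP8 to 2.45 for ABCG4.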

How the data were processed

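RNA-seq was run on 2 libraries per subline. The authors deposited raw counts of reads per gene, aligned to hg19. Their processing notes name CASAVA and STAR. How reads were assigned to genes (tool, annotation, strand) is not given in the sources used here. Of 12912 identifiers, 12749 were found in GENCODE v44 lifted to GRCh37, which gave coordinates and lengths.

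The counts went into edgeR (4.0.16, under R 4.3.3) after filterByExpr with a minimum count of 10 had left 12335 genes. TMM scaling, dispersions over all 4 libraries (common dispersion 0.00186) and the quasi-likelihood F test with group as the only term followed. Standard errors are those implied by F. DESeq2 1.42.0, the tool of the paper, was an alternative, beside scaling, filter, depth, left-out libraries and blocks. The analysis was tested on simulated data, and the outcome is not reported here. Replicates differed beyond sampling noise (chi-square per degree of freedom 2.22 and 2.72).

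The members and lists were chosen with earlier results of these data known. Named are the members, VHL, and at most 3 genes per direction of each list with the largest change at FDR < 0.05; some listed genes are counted but not reported here. Outside this rule, SREBF1, RXRA, VLDLR, ABCA2 and the markers given by name were picked with their values known. The use of transcript length was added after the data were seen.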

Additional observations from a re-analysis of the deposited data

How the results depend on the processing

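Of the 9 members, SCARB1 and NPC1 kept their direction and call under all 12 alternatives and at FDR < 0.01. The count of members higher, 2 as reported, was 1 with DESeq2, with no filter on low counts, with at least 10 counts in every library, after thinning, in the replicate block that pairs the deeper 786-O-Ctrl library with 786-O-VHL replicate 1 and at FDR < 0.01, and 4 with library totals alone. It was 1 without any 1 library. The count lower, 1 as reported, was 2 with RLE size factors and with no filter, and 1 to 2 without 1 library. The count past 2-fold, 2 as reported, was 1 with DESeq2, with no filter, with at least 10 counts in every library, after thinning, without any 1 library and in both replicate blocks. These differences came from APOE and SOAT1, except that MYLIP and NR1H3 were called with library totals, and ABCA1 without 786-O-VHL replicate 2; in the other block NR1H3 was called and APOE was not. Of the listed genes, 20 were higher as reported and 10 with DESeq2, 11 after thinning and 11 to 20 without 1 library. The lists' count lower stayed within 1.5 times of the 23 reported, between 17 and 23. Directions reversed in 4 fits, none past the threshold: ABCA1 at 0.088 with library totals alone and 0.027 without 786-O-VHL replicate 1, NPC2 at 0.081 with library totals alone, and NR1H2 at 0.026 after thinning. ABCA1 ranged from -0.18 to 0.027 without 1 library. Library totals alone shift the median of all genes by 0.13, as large as the reported values of these genes.

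The control columns share a replicate number, so both possible pairings were fitted. With the deeper 786-O-Ctrl library paired with 786-O-VHL replicate 1, the deviations of the replicates did not correlate (r = -0.0054 across 12335 genes). With 2 libraries per group, the other pairing only reverses the sign (r = 0.0054), so it is not a second check. Both replicate blocks called SCARB1 (-1.57 and -1.58) and NPC1 (0.32 in each), and neither called APOE. VHL itself stayed between 1.91 and 2.25 under all alternatives. Depth limits APOE, since 3 counts in 786-O-VHL replicate 1 exceed its level in 786-O-Ctrl.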

Other observations

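Of 21 genes tested for proteins that move sterol between membranes inside the cell, 7 were higher and 7 lower at edgeR FDR < 0.05, shares close to the 32.6% higher and 31.9% lower of all genes tested, and the median log2 fold change was 0.02. TMEM97, an NPC1-binding protein of the endoplasmic reticulum, fell most, from 57.3 ± 3.44 CPM in 786-O-Ctrl to 20.4 ± 0.586 CPM in 786-O-VHL (SD, n = 2 each, log2 fold change -1.47, edgeR FDR = 2.49e-13). STARD4, a soluble cholesterol carrier, fell by 0.69 and OSBPL5, a lipid exchanger at membrane contacts, by 0.65. OSBPL2 rose by 0.45 and SCARB2, a lysosomal membrane protein, by 0.32. STARD5 had 19 and 17 counts in 786-O-Ctrl and 6 and 33 counts in 786-O-VHL, with a log2 fold change of 0.97 (edgeR FDR = 0.0405) that no fit without 1 library called.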
